A study of Homo sapiens with 9 samples.

Results

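Metalloproteinases of the Mmp, Adam and Adamts families and their Timp inhibitors were measured in 9 mouse anaplastic thyroid tumors. The members were every gene of the expression table whose symbol is Mmp, Adam, Adamts or Timp followed by a number and at most 1 further letter, which gave 77 of 17369 genes. The set held 23 Mmp, 32 Adam, 19 Adamts and 3 Timp genes (Timp2, Timp3 and Timp4), and Timp1 was not analysed here. The tumors grew in the thyroid of female mice that were 6 weeks old at injection, and they were collected after 14 days as whole tissue. TBP3743 is a mouse thyroid cancer line that carries an activating Braf mutation and lacks Trp53. The original/B6129SF1 group (n = 3) received original TBP3743 cells in hybrid B6129SF1 hosts, the adapted/B6129SF1 group (n = 3) received adapted TBP3743 cells in B6129SF1 hosts, and the adapted/C57BL/6 group (n = 3) received adapted cells in C57BL/6 hosts. The adapted cells are a single derivative of the line, recovered after 3 rounds of growth in C57BL/6 mice, so a difference from the original cells is a difference from that derivative. Adapted/B6129SF1 against original/B6129SF1 thus compares cells in the same host, adapted/C57BL/6 against adapted/B6129SF1 compares hosts for the same cells, and adapted/C57BL/6 against original/B6129SF1 differs in both. The study bought its C57BL/6 and B6129SF1 mice from different suppliers, so host strain and supplier cannot be told apart.

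Matrix metalloproteinases (MMPs) are zinc enzymes that cut collagens, gelatin, proteoglycans and other matrix proteins, and most are made as inactive precursors that another protease has to open. ADAMs are membrane proteins that mainly release the outer part of growth factors, cytokines and receptors from the cell surface, while ADAMTS enzymes are secreted and act on procollagens, proteoglycans and microfibrils. TIMPs bind the active site of these enzymes, and Timp2 has the further role of a bridge that lets membrane-bound Mmp14 activate pro-Mmp2. In carcinomas much of this expression belongs to fibroblasts, macrophages and other host cells as well as to tumor cells.

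Expression was deposited as FPKM, a fragment count divided by the length of the transcript and scaled to the library, so that levels can be set side by side between genes. Total FPKM per tumor lay between 457983 and 540514, and the sequencing depth behind them is unknown. Of the 77 members, 35 had at least 1 FPKM in at least 3 tumors and were compared. Values of single tumors are given as replicates 1, 2 and 3 of each group. The members compared were 14 Mmp, 8 Adam, 11 Adamts and 2 Timp genes. Another 29 were detected below that limit and 13, of which 11 are Adam genes, were listed at 0 in all 9 tumors. Ranked by the third highest tumor, the nearest member inside the limit was Adamts8, at 1.09, 0.45 and 1.27 FPKM in the original/B6129SF1 tumors, 0.196, 0.349 and 0.999 in the adapted/B6129SF1 tumors and 1.02, 0.256 and 0.328 in the adapted/C57BL/6 tumors. The nearest outside was Adam22, which exceeded 1 FPKM in 2 tumors. Of the 35 compared, 3 (Adam33, Mmp23 and Mmp25) reached 1 FPKM in tumors of adapted cells alone and 1 (Mmp10) in tumors of original cells alone, as did 245 and 26 of all 10263 genes compared. These 4 entered the comparison through the tumors where they were high, so their tests are not independent of that limit, and adjusted p-values without it are given beside each.

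The label of the samples names a cancer epithelial cell, and the tumors held transcripts of several cell types. Keratin 8 (Krt8) ranged from 153 to 615 FPKM and Krt18 from 110.2 to 389.7, whereas the epithelial adhesion genes Cdh1 and Epcam ranged from 1.03 to 4.48 and from 0.0949 to 2.49. Of the thyroid markers, the transcription factor Nkx2-1 was at 23.5 to 44.5 FPKM and thyroglobulin (Tg) at 0.0153 to 31, and 3 of the 7 thyroid genes were under 1 FPKM in all tumors. Skeletal muscle genes, of which Mylpf was the most abundant, stood apart in 2 libraries. The 10 muscle genes summed to 109, 17.8 and 68.1 FPKM in the original/B6129SF1 tumors, 594, 15.5 and 31825 in the adapted/B6129SF1 tumors and 4647, 3.56 and 226 in the adapted/C57BL/6 tumors. Adapted/B6129SF1 replicate 3 and adapted/C57BL/6 replicate 1 therefore carried the most muscle RNA. In whole tumors, fewer cells of a type and less RNA per cell cannot be told apart.

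Expression of the families was concentrated in a few genes, as the plot of levels by role shows. The order by mean over all 9 tumors was Timp2 (324 FPKM), Mmp14 (186), Mmp9 (150.4), Adam9 (71.4), Adam8 (67.1), Timp3 (65.5), Adam15 (56.2), Adam10 (51.2), Mmp2 (41.2) and Mmp19 (28.9). Neighbours in this order mostly overlapped between tumors. Mmp14, for example, ranged from 135 to 249 FPKM and Mmp9 from 48.1 to 367, so that either was the higher depending on the tumor. Mmp14 and Mmp9 together made up 61.2 to 84.7% of all Mmp FPKM in a tumor, and Timp2 made up 74.3 to 90.5% of the FPKM of the 3 Timp genes. Among the 10 most abundant members the ratio of the highest to the lowest tumor was smallest for Adam10, at 1.18, and largest for Mmp2, at 8.96.

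**Figure D1:**
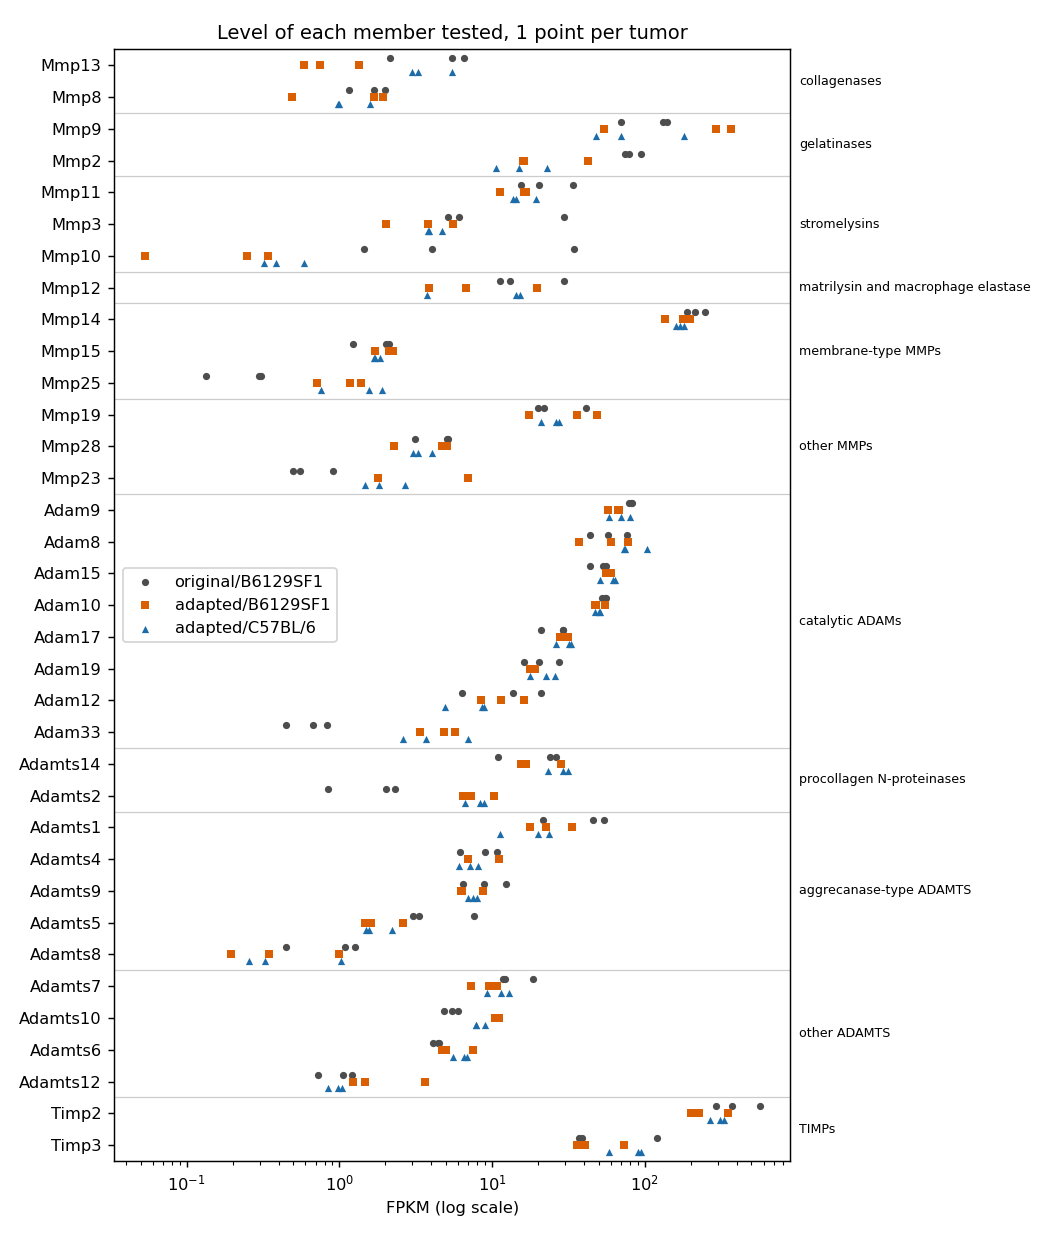
FPKM of each of the 35 members tested, on a log scale, with 1 point per tumor and the members grouped by role. Timp2, Mmp14 and Mmp9 lie highest, and the gray original/B6129SF1 points of Mmp2, Mmp10, Adam33, Adamts2 and Mmp25 are separated from the points of both adapted groups.

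Few members passed the test, and those that did were split between higher and lower. A gene was called when its adjusted p was under 0.05 and its absolute log2 fold change of FPKM + 1 was above 1, by limma with Benjamini-Hochberg adjustment over all 10263 genes tested. In the adapted/B6129SF1 tumors, 4 of 35 members (11.4%) were called against the original/B6129SF1 tumors, where 3.22% of all genes were called. Adam33 and Adamts2 were higher, in a direction in which 2.36% of all genes were called, and Mmp2 and Mmp13 were lower, in a direction in which 0.857% were called. In the adapted/C57BL/6 tumors, 3 of 35 (8.57%) were called against the same original/B6129SF1 tumors, with 3.09% of all genes called. Adam33 and Adamts2 were again higher (2.42% of all genes) and Mmp2 lower (0.672% of all genes). With no limit on low values, 3 of 64 members (4.69%) were called in each comparison, 2 higher and 1 lower, where 1.86% of all 14520 genes were called for adapted/B6129SF1 and 1.77% for adapted/C57BL/6. Both comparisons share the original/B6129SF1 tumors and are not independent of each other. Between the adapted/C57BL/6 and adapted/B6129SF1 tumors, which hold the same cells in different hosts, limma called 0 of 35 members and 0.0292% of all genes, and 2 members (5.71%), Mmp13 and Adamts10, had an unadjusted p under 0.05, as did 643 of all 10263 genes (6.27%).

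The members differed in both directions, with log2 fold changes from -2.65 to 1.75 in the adapted/B6129SF1 group and from -2.42 to 1.76 in the adapted/C57BL/6 group. The median log2 fold change of the 35 members was -0.14 in the adapted/B6129SF1 group and -0.22 in the adapted/C57BL/6 group against original/B6129SF1, and that of all genes was -0.03 in each. Without the threshold on the fold change, 5 members had an adjusted p under 0.05 in each of these comparisons (8.28% and 6.75% of all genes), the added ones being Adamts10 for adapted/B6129SF1 and Adamts10 and Mmp25 for adapted/C57BL/6. They were 3 higher (4.37% of all genes) and 2 lower (3.92%) for adapted/B6129SF1, and 4 higher (3.99%) and 1 lower (2.77%) for adapted/C57BL/6. The 3 tumors of each group did not overlap for 14 of 35 members (40.0%) between adapted/B6129SF1 and original/B6129SF1, against 29.6% of all genes. Of the 14, 8 were higher (13.6% of all genes) and 6 lower (15.9%). The groups did not overlap for 12 members (34.3%) between adapted/C57BL/6 and original/B6129SF1, close to the 32.8% of all genes, with 6 higher (14.9%) and 6 lower (17.9%). Between the adapted groups they did not overlap for 3 members (8.57%), against 11.7% of all genes, with 1 higher in adapted/C57BL/6 (6.32%) and 2 lower (5.42%). The number of calls depended on single tumors. In the adapted/B6129SF1 comparison it fell from 4 to 2 without original/B6129SF1 replicate 1, adapted/B6129SF1 replicate 1 or adapted/B6129SF1 replicate 2, and to 1 without original/B6129SF1 replicate 3, where 2.22, 3.41, 2.54 and 1.46% of all genes were called. In the adapted/C57BL/6 comparison it fell from 3 to 2 without original/B6129SF1 replicate 3 (1.79% of all genes) and to 1 without adapted/C57BL/6 replicate 3 (1.5% of all genes).

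**Figure D2:**
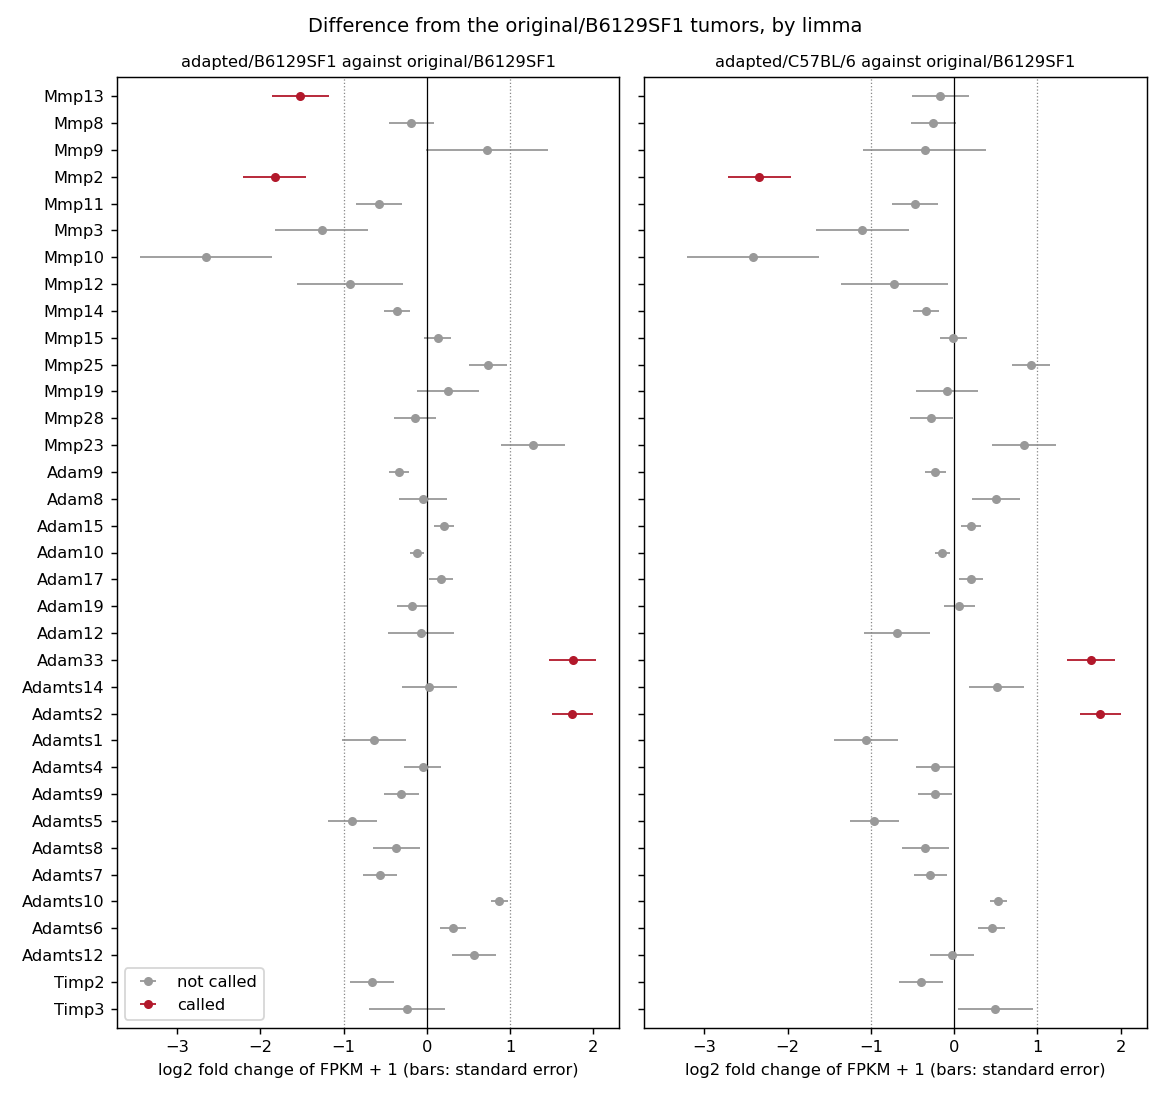
Log2 fold change of FPKM + 1 (points) with its standard error (bars) for the 35 members against the original/B6129SF1 tumors, from limma, with dotted lines at a log2 fold change of 1 in either direction. Adam33, Adamts2 and Mmp2 are marked as called in both panels and Mmp13 in the adapted/B6129SF1 panel.

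The gelatinases Mmp2 and Mmp9 cut denatured collagen and the type IV collagen of basement membranes. Mmp2, which mesenchymal cells make in abundance, was at 78.4, 94.8 and 74.5 FPKM in the original/B6129SF1 tumors, 16, 16.3 and 42.7 in the adapted/B6129SF1 tumors and 22.9, 10.6 and 14.9 in the adapted/C57BL/6 tumors. All 6 tumors of adapted cells were below all 3 tumors of original cells, and adapted/B6129SF1 replicate 3 was the highest of the 6. The group means were 82.6 ± 10.8, 25 ± 15.3 and 16.1 ± 6.23 FPKM (SD, n = 3). By limma, Mmp2 was lower in the adapted/B6129SF1 group (log2 fold change -1.83, SE 0.379, adjusted p = 0.0243) and again in the adapted/C57BL/6 group (log2 fold change -2.34, SE 0.379, adjusted p = 0.00949). Its share of all Mmp FPKM lay between 12.3 and 20.5% in the original/B6129SF1 tumors. It lay between 3.51 and 5.35% in the adapted/C57BL/6 tumors and was 2.39, 2.93 and 14.1% in the adapted/B6129SF1 tumors. Without the 2 muscle-rich tumors the means of the adapted groups were 16.2 and 12.8 FPKM, and the call held in both. In the adapted/B6129SF1 comparison the call was lost when original/B6129SF1 replicate 1, 2 or 3 or adapted/B6129SF1 replicate 1 or 2 was left out (log2 fold change -1.90 to -1.60, adjusted p 0.0587 to 0.0731 by limma), and in the adapted/C57BL/6 comparison when adapted/C57BL/6 replicate 3 was left out (log2 fold change -2.32, adjusted p 0.0502).

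Mmp9, which neutrophils store and macrophages secrete, was the more abundant gelatinase in most tumors. It was at 141, 69.7 and 131 FPKM in the original/B6129SF1 tumors, 367, 293 and 53.8 in the adapted/B6129SF1 tumors and 180.3, 48.1 and 70.1 in the adapted/C57BL/6 tumors. The tumors of adapted/B6129SF1 replicates 1 and 2 were the highest of the 9 and replicate 3 of that group was among the lowest, so the groups overlapped (adapted/B6129SF1, log2 fold change 0.72, SE 0.734, adjusted p = 0.56; adapted/C57BL/6, log2 fold change -0.36, SE 0.734, adjusted p = 0.808, by limma). Mmp9 was 54.7 and 52.7% of all Mmp FPKM in the first 2 of these tumors and 17.8% in the third. Leaving out both muscle-rich tumors, of which adapted/B6129SF1 replicate 3 is 1, Mmp9 was called higher in the adapted/B6129SF1 group (log2 fold change 1.58, adjusted p = 0.0381), with means of 113.9 FPKM in the original/B6129SF1 tumors and 329.8 in the remaining pair. Leaving out adapted/B6129SF1 replicate 3 alone gave a log2 fold change of 1.58 (adjusted p = 0.121). The fits differ in adapted/C57BL/6 replicate 1, which is outside this comparison and acts on it only through the spread estimated over all groups. Of 17 alternatives, leaving out both tumors was the 1 that called Mmp9 in this comparison. Of the 11 neutrophil markers, 4 could be tested and limma called 0 in either comparison (3.22% and 3.09% of all genes). Their sum was 27.2, 24.9 and 32.6 FPKM in the original/B6129SF1 tumors, 18.6, 8.86 and 26.8 in the adapted/B6129SF1 tumors and 59.8, 25.8 and 26.9 in the adapted/C57BL/6 tumors, S100a8 was the most abundant, and Ly6g was at 0 in 8 tumors. The part of neutrophils in the level of Mmp9 was not tested.

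Collagenases cut intact fibrillar collagen, and Mmp13 is the main collagenase of rodents. Mmp13 was at 6.58, 2.15 and 5.47 FPKM in the original/B6129SF1 tumors, 0.591, 1.35 and 0.751 in the adapted/B6129SF1 tumors and 5.48, 2.97 and 3.26 in the adapted/C57BL/6 tumors. Every adapted/B6129SF1 tumor was below every tumor of the other groups, while the adapted/C57BL/6 tumors lay within the range of the original/B6129SF1 tumors. The means were 4.73 ± 2.3, 0.897 ± 0.40 and 3.9 ± 1.37 FPKM (SD, n = 3). Mmp13 was lower in the adapted/B6129SF1 group (log2 fold change -1.52, SE 0.34, adjusted p = 0.0308, limma), and the adapted/C57BL/6 group differed by a log2 fold change of -0.16 against original/B6129SF1 (adjusted p = 0.808). The direct comparison of adapted/C57BL/6 with adapted/B6129SF1 gave 1.36 (SE 0.34, adjusted p = 0.536), so a difference between hosts did not pass the test although the groups were apart. The call in the adapted/B6129SF1 group was lost when original/B6129SF1 replicate 1 or 3, adapted/B6129SF1 replicate 1, 2 or 3 or adapted/C57BL/6 replicate 3 was left out (log2 fold change -1.68 to -1.27, adjusted p 0.0511 to 0.106), and when both muscle-rich tumors were left out (log2 fold change -1.47, adjusted p = 0.0719). It was lost as well with no limit on low values (adjusted p = 0.054) and when the 6 tumors compared were fitted alone (adjusted p = 0.0654). Mmp8, the collagenase of neutrophils, ranged from 0.489 to 1.98 FPKM and its groups overlapped. Of the other listed collagenases, Mmp1a was at 0 in all tumors and Mmp1b under 1 FPKM.

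Stromelysins cut proteoglycans and fibronectin and open the precursors of other MMPs. Mmp10 (stromelysin-2), made mainly by epithelial cells, was at 4.05, 1.45 and 34.6 FPKM in the original/B6129SF1 tumors, 0.34, 0.25 and 0.0535 in the adapted/B6129SF1 tumors and 0.384, 0.32 and 0.584 in the adapted/C57BL/6 tumors. All tumors of adapted cells were under 1 FPKM and all tumors of original cells above it, but the original/B6129SF1 tumors ranged widely, with replicate 3 far above the other two. Mmp10 had the most negative log2 fold changes of the members and did not pass the test (log2 fold change -2.65, SE 0.793, adjusted p = 0.0762 in adapted/B6129SF1 and log2 fold change -2.42, SE 0.793, adjusted p = 0.104 in adapted/C57BL/6, limma). Mmp10 reached 1 FPKM in the 3 original/B6129SF1 tumors alone, so that without any of them it falls below the limit of 3 tumors. The genes compared were kept the same in those fits, and without replicate 2 Mmp10 was called lower in both comparisons (adjusted p = 0.0434 in adapted/C57BL/6, limma). These calls are included in the counts with single tumors left out and in the 10 gained calls given below. No conclusion was drawn from them. The size of the difference rested on the 3 original/B6129SF1 tumors. Without replicate 2, the lowest, the log2 fold change was -3.47 in adapted/B6129SF1 and -3.23 in adapted/C57BL/6, and without replicate 3, the highest, it was -1.54 and -1.30. With all tumors and no limit on low values it was not called (adjusted p = 0.12 and 0.157). Mmp3 (stromelysin-1) was at 6.09, 5.12 and 29.4 FPKM in the original/B6129SF1 tumors, 5.57, 2.03 and 3.79 in the adapted/B6129SF1 tumors and 4.7, 3.88 and 3.8 in the adapted/C57BL/6 tumors. Original/B6129SF1 replicate 3 was again the highest tumor, and the other 8 tumors lay between 2.03 and 6.09 FPKM, and the test was not passed (adjusted p = 0.187 and 0.263). The Mmp3 log2 fold change of -1.26 in adapted/B6129SF1 was -0.53 without that replicate. Mmp11, known from the stroma of carcinomas, ranged from 11.2 to 33.9 FPKM. The 3 stromelysins together summed to 25.6, 40.5 and 84.2 FPKM in the original/B6129SF1 tumors and to between 15.1 and 23.7 FPKM in the 6 tumors of adapted cells, without overlap.

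Mmp14, the membrane-type enzyme that activates pro-Mmp2, was abundant and steady. It was at 189, 214 and 249 FPKM in the original/B6129SF1 tumors, 197, 178 and 135 in the adapted/B6129SF1 tumors and 161, 171 and 181 in the adapted/C57BL/6 tumors. The adapted/C57BL/6 tumors were all below the original/B6129SF1 tumors and the adapted/B6129SF1 tumors overlapped them, with log2 fold changes of -0.36 and -0.34 that did not pass the test (adjusted p = 0.181 in adapted/B6129SF1 and 0.222 in adapted/C57BL/6, limma). Mmp25 (leukolysin), a membrane-type enzyme of leukocytes, was at 0.133, 0.299 and 0.306 FPKM in the original/B6129SF1 tumors, 0.709, 1.39 and 1.18 in the adapted/B6129SF1 tumors and 1.56, 0.763 and 1.91 in the adapted/C57BL/6 tumors. Both adapted groups were apart from the original/B6129SF1 tumors, at low levels, and the adjusted p was 0.0807 in the adapted/B6129SF1 group (log2 fold change 0.74) and 0.0464 in the adapted/C57BL/6 group (log2 fold change 0.92). The adapted/C57BL/6 value passed 0.05 only while original/B6129SF1 replicates 1 to 3, adapted/B6129SF1 replicates 2 and 3 and adapted/C57BL/6 replicates 1 and 3 were each kept (adjusted p 0.0522 to 0.167 without 1 of them), and was 0.86 on the log2 scale without both muscle-rich tumors (adjusted p = 0.124). In the adapted/C57BL/6 group Mmp25 was called higher without adapted/C57BL/6 replicate 2 and with a pseudocount of 0.1. Mmp25 reached 1 FPKM in 4 tumors, all of adapted cells. With no limit on low values its adjusted p was 0.0813 in adapted/B6129SF1 and 0.0468 in adapted/C57BL/6, and with the 6 tumors compared fitted alone it was 0.0529 in the latter. Mmp23, which is held in the membrane by its amino-terminal end, was at 0.908, 0.549 and 0.494 FPKM in the original/B6129SF1 tumors, 1.8, 1.79 and 6.99 in the adapted/B6129SF1 tumors and 1.81, 2.68 and 1.47 in the adapted/C57BL/6 tumors. Its highest value was in the muscle-rich adapted/B6129SF1 replicate 3. All tumors of adapted cells were above those of original cells, and the log2 fold changes of 1.27 and 0.84 did not pass the test (adjusted p = 0.0795 and 0.221). Without that replicate the adapted/B6129SF1 value was 0.77 (adjusted p = 0.0805), and with all tumors and no limit on low values the adjusted p was 0.118 in adapted/B6129SF1 and 0.293 in adapted/C57BL/6. Mmp12, the macrophage elastase, ranged from 3.75 to 29.6 FPKM with overlap of all groups, and Mmp15, Mmp19 and Mmp28 overlapped as well.

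**Figure D3:**
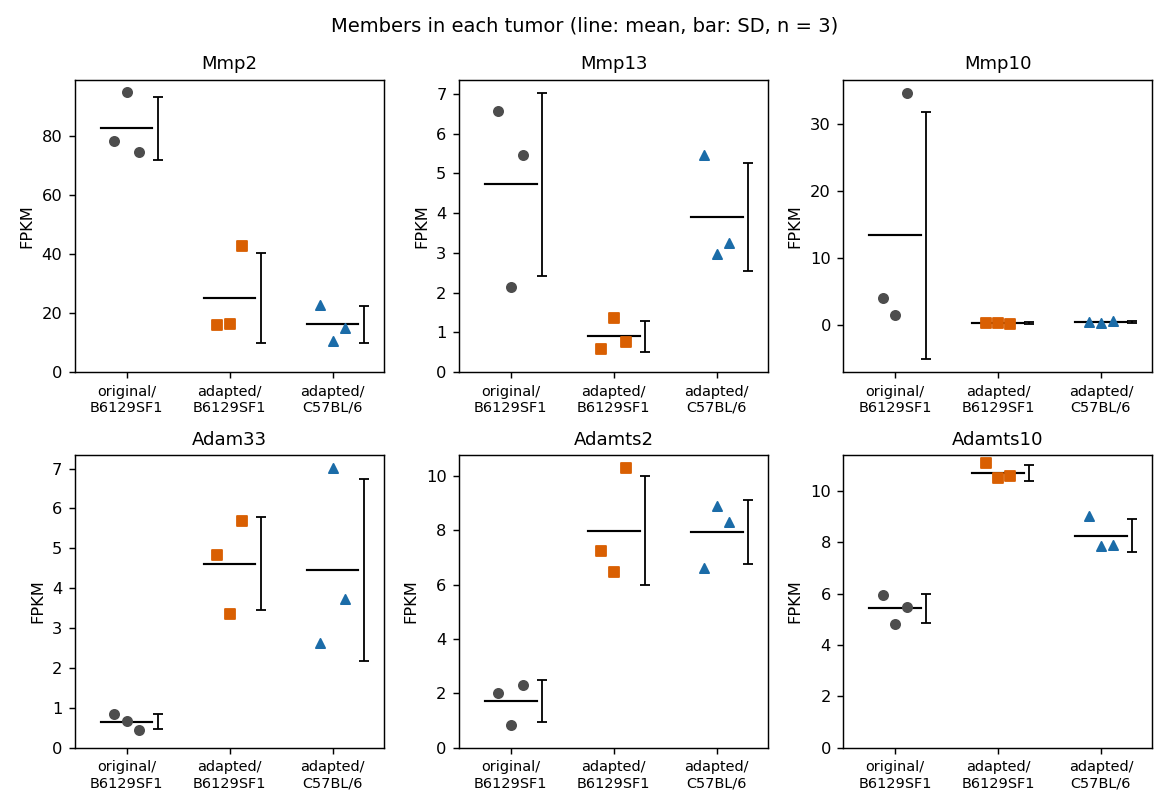
FPKM of 6 members in each tumor, with the mean (line) and SD (bar, n = 3) of each group and axes that differ between panels. Mmp2 is at 74.5 FPKM or more in the original/B6129SF1 tumors and at 42.7 or less in the others, Mmp13 is low in the adapted/B6129SF1 tumors alone, 1 original/B6129SF1 tumor sets the Mmp10 mean, and Adam33, Adamts2 and Adamts10 are higher in all 6 tumors of adapted cells.

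Of the 8 ADAMs tested, 1 (12.5%) was called in each comparison against original/B6129SF1. Of all genes, 3.22% were called for adapted/B6129SF1 and 3.09% for adapted/C57BL/6. Adam33, an ADAM expressed in mesenchymal cells such as fibroblasts and smooth muscle and studied in asthma, was at 0.835, 0.67 and 0.449 FPKM in the original/B6129SF1 tumors, 4.82, 3.36 and 5.68 in the adapted/B6129SF1 tumors and 2.62, 7.0 and 3.72 in the adapted/C57BL/6 tumors. The groups did not overlap, since the original/B6129SF1 tumors were all under 1 FPKM and the lowest tumor of adapted cells was at 2.62. The means were 0.651 ± 0.194, 4.62 ± 1.17 and 4.45 ± 2.28 FPKM (SD, n = 3). Adam33 was higher in the adapted/B6129SF1 group (log2 fold change 1.75, SE 0.286, adjusted p = 0.0113, limma) and in the adapted/C57BL/6 group (log2 fold change 1.65, SE 0.286, adjusted p = 0.013), and these values, computed after adding 1 to FPKM, understate the ratio at this level. Adam33 reached 1 FPKM in the 6 tumors of adapted cells alone, and with no limit on low values it was called in both comparisons (adjusted p = 0.0228 and 0.0277). Without the 2 muscle-rich tumors the means of the adapted groups were 4.09 and 5.36 FPKM. The adapted/B6129SF1 call was lost without original/B6129SF1 replicate 3 (log2 fold change 1.66, adjusted p 0.0521), and the adapted/C57BL/6 call was lost without original/B6129SF1 replicate 3 or adapted/C57BL/6 replicate 3 (log2 fold change 1.56 to 1.71, adjusted p 0.0518 to 0.0584).

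Adam9, Adam10, Adam15 and Adam17 were among the steadiest members. Adam10, the sheddase of Notch receptors and cadherins, was at 55.3, 55.6 and 52.4 FPKM in the original/B6129SF1 tumors, 54.9, 48.1 and 47.2 in the adapted/B6129SF1 tumors and 50.1, 47 and 50.6 in the adapted/C57BL/6 tumors, a span of 1.18 times from the lowest tumor to the highest. Adam17, which releases TNF and ligands of the EGF receptor, ranged from 20.9 to 32.9 FPKM. Adam9 ranged from 57.1 to 82.3 FPKM and was lower in every adapted/B6129SF1 tumor than in every original/B6129SF1 tumor, by a log2 fold change of -0.33 that did not pass the test (adjusted p = 0.127, limma). Adam15 ranged from 44.1 to 64.3 FPKM and Adam8, an ADAM of leukocytes, from 37.3 to 103. Adam12 and Adam19, which are prominent in mesenchyme and muscle development, ranged from 4.91 to 20.8 and from 16.3 to 27.4 FPKM, and their groups overlapped in all comparisons. Adam22, which lacks a working active site and is best known at synapses, was outside the fit. It was at 1.76, 1.42 and 0.857 FPKM in the original/B6129SF1 tumors, 0.262, 0.206 and 0.382 in the adapted/B6129SF1 tumors and 0.224, 0.233 and 0.241 in the adapted/C57BL/6 tumors. Its original/B6129SF1 tumors were all above the 6 tumors of adapted cells, and the exact two-sided permutation test gave p = 0.1 against each adapted group, the smallest that 3 tumors against 3 allow.

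Among the ADAMTS enzymes, the procollagen N-proteinases remove the amino-terminal propeptide of fibrillar collagens before fibrils form. Adamts2, the principal enzyme for type I collagen, was at 2.01, 0.842 and 2.3 FPKM in the original/B6129SF1 tumors, 7.24, 6.46 and 10.3 in the adapted/B6129SF1 tumors and 6.63, 8.9 and 8.33 in the adapted/C57BL/6 tumors. The highest original/B6129SF1 tumor was at 2.30 FPKM and the lowest tumor of adapted cells at 6.46. The means were 1.72 ± 0.772, 8.0 ± 2.02 and 7.95 ± 1.18 FPKM (SD, n = 3). Adamts2 was higher in the adapted/B6129SF1 group (log2 fold change 1.75, SE 0.244, adjusted p = 0.00727, limma) and in the adapted/C57BL/6 group (log2 fold change 1.76, SE 0.244, adjusted p = 0.00551). Of the members called, Adamts2 was the one whose call was kept in each of the 17 alternatives in both comparisons, including each tumor left out in turn. Adamts14, the related N-proteinase, was more abundant and did not follow it, at 23.9, 11 and 26.4 FPKM in the original/B6129SF1 tumors, 28.5, 16.8 and 15.6 in the adapted/B6129SF1 tumors and 23.1, 29.3 and 31.5 in the adapted/C57BL/6 tumors. The groups overlapped (log2 fold change 0.03, adjusted p = 0.966, and 0.51, adjusted p = 0.386).

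Adamts10, which binds fibrillin microfibrils, showed the smallest adjusted p of the members in the adapted/B6129SF1 comparison at a moderate fold change. It was at 5.96, 4.83 and 5.49 FPKM in the original/B6129SF1 tumors, 11.1, 10.5 and 10.6 in the adapted/B6129SF1 tumors and 9.01, 7.87 and 7.91 in the adapted/C57BL/6 tumors. The 3 groups did not overlap at all, in the order original/B6129SF1, adapted/C57BL/6 and adapted/B6129SF1. By limma it passed an adjusted p of 0.05 against original/B6129SF1 for adapted/B6129SF1 (log2 fold change 0.87, SE 0.103, adjusted p = 0.0040) and for adapted/C57BL/6 (log2 fold change 0.53, SE 0.103, adjusted p = 0.0209), with a fold change below the threshold for a call. The adapted/B6129SF1 value had an adjusted p under 0.05 without any single tumor, and the adapted/C57BL/6 value did not without original/B6129SF1 replicate 3 or adapted/C57BL/6 replicate 1 or 3 (log2 fold change 0.47 to 0.56, adjusted p 0.070 to 0.0763). Leaving out both muscle-rich tumors gave 0.88 (adjusted p = 0.0151) in adapted/B6129SF1 and 0.47 (adjusted p = 0.0826) in adapted/C57BL/6. Between the adapted groups the log2 fold change was -0.34 (unadjusted p = 0.00976, adjusted p = 0.602), which did not pass the test. Adamts12 was at 1.48, 1.24 and 3.62 FPKM in the adapted/B6129SF1 tumors, above all tumors of the other groups, and its highest value was in the muscle-rich replicate 3. Adamts6 was higher in all tumors of adapted cells than in those of original cells, by log2 fold changes of 0.31 and 0.45 that did not pass the test (adjusted p = 0.25 and 0.13).

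The ADAMTS enzymes that cut aggrecan and versican gave 0 calls among the 5 tested, by limma, where 3.22% and 3.09% of all genes were called. Their median log2 fold changes were -0.37 in the adapted/B6129SF1 group and -0.34 in the adapted/C57BL/6 group, and the median of all genes was -0.03 in each. The nearest to a call was Adamts5, a main aggrecanase of cartilage, at 3.04, 7.61 and 3.32 FPKM in the original/B6129SF1 tumors, 1.61, 1.46 and 2.61 in the adapted/B6129SF1 tumors and 1.49, 2.2 and 1.57 in the adapted/C57BL/6 tumors. All tumors of adapted cells were below those of original cells (log2 fold change -0.90, adjusted p = 0.0962, and -0.96, adjusted p = 0.0886). Adamts1 had the highest mean of the ADAMTS genes over all 9 tumors, at 27.8 FPKM against 22.9 for Adamts14. In the adapted/C57BL/6 tumors Adamts14 had the higher mean (27.9 against 18.3 FPKM). Adamts1 ranged from 11.3 to 54.2 FPKM and was not called (log2 fold change -0.64, adjusted p = 0.326, and -1.06, adjusted p = 0.136). Adamts4 and Adamts9 ranged from 6.03 to 11.1 and from 6.3 to 12.3 FPKM with overlapping groups.

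The inhibitors tested, Timp2 and Timp3, gave no call, and Timp4 was below the limit on low values. Timp2 was at 295, 566 and 374 FPKM in the original/B6129SF1 tumors, 350.5, 226 and 199.8 in the adapted/B6129SF1 tumors and 266, 328 and 309.6 in the adapted/C57BL/6 tumors. Original/B6129SF1 replicate 2 was the highest and the groups overlapped (adjusted p = 0.161 and 0.403 against original/B6129SF1, limma). Timp3, which stays bound to the matrix and also inhibits Adam17, was at 37.3, 120.4 and 39.1 FPKM in the original/B6129SF1 tumors, 72.7, 36.3 and 40.4 in the adapted/B6129SF1 tumors and 90.8, 58.4 and 94.4 in the adapted/C57BL/6 tumors, again with the highest value in original/B6129SF1 replicate 2. Of the 3 partners of pro-Mmp2 activation, Mmp14 and Timp2 differed from original/B6129SF1 by log2 fold changes between -0.66 and -0.34 that did not pass the test, and Mmp2 by -1.83 and -2.34, which did. Summed over all 23 Mmp genes, expression was 501, 463 and 607 FPKM in the original/B6129SF1 tumors, 669.5, 556 and 303 in the adapted/B6129SF1 tumors and 428, 302 and 341 in the adapted/C57BL/6 tumors. The adapted/C57BL/6 sums were all below the original/B6129SF1 sums, with p = 0.1 by the exact two-sided permutation test, the smallest this design allows. The sums of the Adam, Adamts and Timp genes overlapped between groups.

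**Figure D4:**
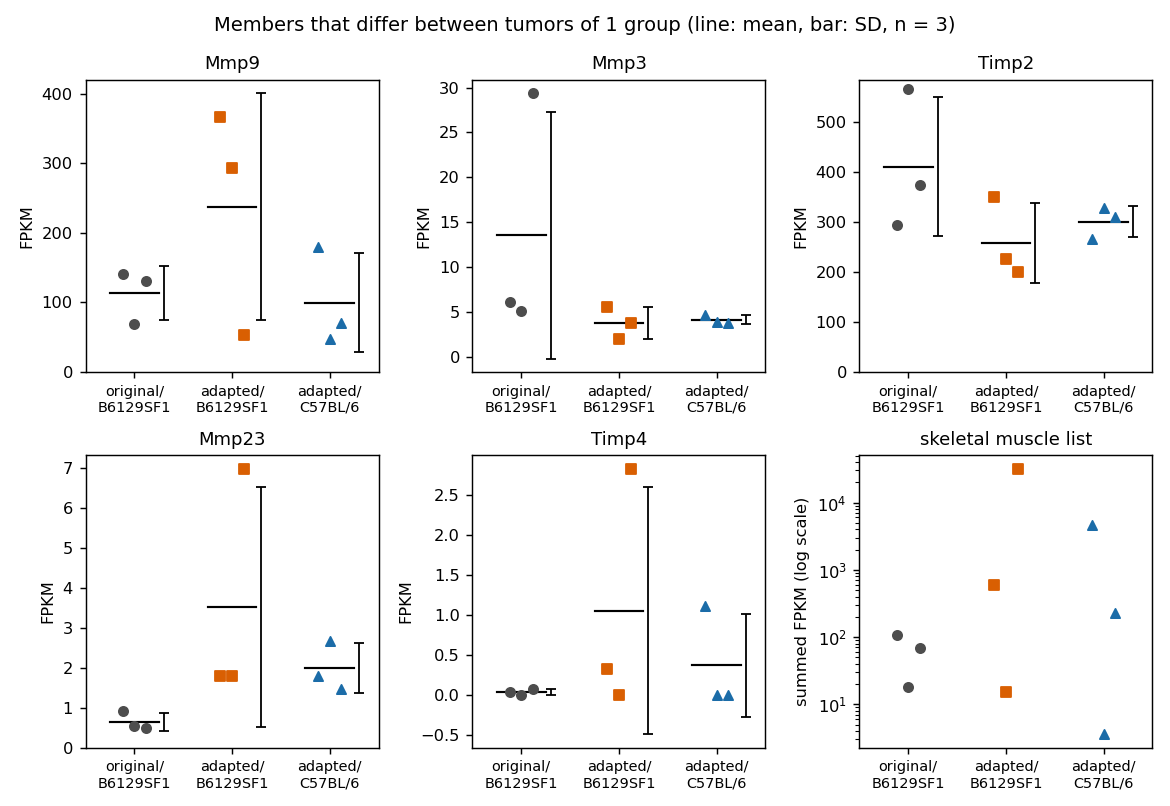
FPKM of 5 members that differed between tumors of the same group (points, 1 per tumor, with the mean as a line and the SD as a bar, n = 3) and, on a log axis, the summed FPKM of 10 skeletal muscle genes. Adapted/B6129SF1 replicate 3, the tumor with a muscle sum of 31825 FPKM, is the lowest of its group for Mmp9 and the highest for Mmp23 and Timp4, and original/B6129SF1 replicate 3 is the highest of all tumors for Mmp3.

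Several members below the limit on low values were detected mainly in the muscle-rich adapted/B6129SF1 replicate 3. Adamts20 was at 3.74 FPKM there and at 0.222 FPKM or less in the other 8 tumors. Timp4, an inhibitor with high expression in heart and skeletal muscle, was at 2.83 FPKM there, 1.12 in adapted/C57BL/6 replicate 1 and 0.326 or less elsewhere. Adamts15 reached 1.42 and Adam23 1.08 FPKM in the same tumor. Of the 29 members detected below the limit, 13 (44.8%) had their highest value in adapted/B6129SF1 replicate 3, compared with 28.1% of all 4257 such genes. The part of muscle RNA in these values was not tested. For the called members, Mmp2 in this tumor was the highest of the 6 from adapted cells and Adamts2 the highest of all 9. Adam33 was at 5.68 FPKM there, the highest of its group. The calls of these genes held without this tumor in both comparisons, and the adapted/B6129SF1 call of Mmp13 was lost without it.

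The genes that work with these enzymes were compared from 4 lists (activators and partners, ADAMTS-like proteins, matrix substrates, and substrates shed by ADAMs). Of 52 genes with a row, 43 could be tested, and limma called 1 higher and 2 lower in the adapted/B6129SF1 group (6.98% in all) and 1 higher and 0 lower in the adapted/C57BL/6 group (2.33% in all). Of all genes tested, 2.36% were called higher and 0.857% lower in the former comparison (3.22% in all), and 2.42% higher and 0.672% lower in the latter (3.09% in all). The median log2 fold changes of the 43 genes were 0.01 and -0.06. Adamtsl5, an ADAMTS-like protein without a protease domain that binds microfibrils, was at 7.28, 6.38 and 7.43 FPKM in the original/B6129SF1 tumors, 27.4, 11.9 and 15.8 in the adapted/B6129SF1 tumors and 17.1, 20.3 and 22 in the adapted/C57BL/6 tumors. It was higher in the adapted/B6129SF1 group (log2 fold change 1.19, SE 0.25, adjusted p = 0.025, limma) and the adapted/C57BL/6 group (log2 fold change 1.37, SE 0.25, adjusted p = 0.0166), without overlap. These calls were lost without original/B6129SF1 replicate 1, 2 or 3 in both, and also without adapted/B6129SF1 replicate 1 in the former or adapted/C57BL/6 replicate 2 or 3 in the latter (log2 fold change 0.88 to 1.23, adjusted p 0.0217 to 0.0741, and log2 fold change 1.29 to 1.41, adjusted p 0.0503 to 0.0775). Leaving out both muscle-rich tumors, the adapted/C57BL/6 call held (log2 fold change 1.47, adjusted p = 0.0338) and the adapted/B6129SF1 call was lost (log2 fold change 1.26, adjusted p = 0.0594). The latter was also lost when the 6 tumors compared were fitted alone (adjusted p = 0.0651). Adamtsl3 passed the adjusted p alone in the adapted/C57BL/6 group (log2 fold change 0.89, adjusted p = 0.0466), and not without both muscle-rich tumors (log2 fold change 0.93, adjusted p = 0.0857). It was under 0.05 in 4 of its 16 alternatives (adjusted p 0.0416 to 0.145, limma).

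Tspan15, a tetraspanin that carries Adam10 to the cell surface, was at 37.6, 34.6 and 37.3 FPKM in the original/B6129SF1 tumors, 16.2, 22.2 and 10.7 in the adapted/B6129SF1 tumors and 16.9, 21.4 and 22.5 in the adapted/C57BL/6 tumors, whereas Adam10 itself spanned 1.18 times. All tumors of adapted cells were below those of original cells. Tspan15 was called in the adapted/B6129SF1 group (log2 fold change -1.17, SE 0.224, adjusted p = 0.0195, limma) and not in the adapted/C57BL/6 group (log2 fold change -0.83, SE 0.224, adjusted p = 0.0608). The call was lost without original/B6129SF1 replicate 1 or 3 or adapted/B6129SF1 replicate 3 (log2 fold change -1.15 to -0.91, adjusted p 0.0229 to 0.0717), and without both muscle-rich tumors, where the fold change fell below the threshold (log2 fold change -0.91, adjusted p = 0.020). Of 14 shed substrates tested, 1 (7.14%) was called in the adapted/B6129SF1 group, against 3.22% of all genes. In the adapted/C57BL/6 group 0 were called, against 3.09% of all genes. The 1 called was the EGF receptor ligand Hbegf. Hbegf was at 39.5, 22.7 and 50.4 FPKM in the original/B6129SF1 tumors, 17.5, 15.5 and 16.5 in the adapted/B6129SF1 tumors and 20.6, 15.8 and 20.4 in the adapted/C57BL/6 tumors. It was lower in the adapted/B6129SF1 group (log2 fold change -1.07, SE 0.25, adjusted p = 0.0354), and the call was lost without original/B6129SF1 replicate 1 or 3, any adapted/B6129SF1 tumor or adapted/C57BL/6 replicate 1 or 3 (log2 fold change -1.11 to -0.83, adjusted p 0.0533 to 0.112), as it was without both muscle-rich tumors (log2 fold change -1.07, adjusted p = 0.0962), with no limit on low values (adjusted p = 0.0612) and with the 6 tumors compared fitted alone (adjusted p = 0.0805). Plaur, the urokinase receptor, and Tnfrsf1b, a TNF receptor, passed the adjusted p alone in the adapted/B6129SF1 group (log2 fold change -0.71, adjusted p = 0.0321, and 0.50, adjusted p = 0.0403), and neither did without both muscle-rich tumors (adjusted p = 0.0972 and 0.124). Of 17 alternatives, Plaur was under an adjusted p of 0.05 in 10 and Tnfrsf1b in 6. Of the 11 matrix substrates tested, limma called 0 in either comparison, where 3.22% and 3.09% of all genes were called. Col1a1, a substrate of Adamts2, was among the 11 (log2 fold change 1.01, adjusted p = 0.0698, in adapted/B6129SF1 and 0.78, adjusted p = 0.146, in adapted/C57BL/6).

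Markers of the cell types that can make these enzymes were measured in the same tumors. The 10 fibroblast markers, led by Col3a1, summed to 699.6, 895 and 685 FPKM in the original/B6129SF1 tumors, 832, 699.6 and 1441 in the adapted/B6129SF1 tumors and 751, 858 and 753 in the adapted/C57BL/6 tumors, with overlap. Fap, the fibroblast activation protein, was called higher in the adapted/B6129SF1 group (log2 fold change 1.21, SE 0.22, adjusted p = 0.0161, limma), a call lost without original/B6129SF1 replicate 3 (log2 fold change 1.07, adjusted p 0.0656) and kept without both muscle-rich tumors (log2 fold change 1.05, adjusted p = 0.0436). Of the 10 fibroblast markers, 7 had log2 fold changes above 0 in adapted/B6129SF1 (median 0.37) and 5 in adapted/C57BL/6 (median 0.04). Lum and Dcn were among those below 0, at -0.71 and -0.39 in adapted/B6129SF1 and -1.29 and -0.63 in adapted/C57BL/6, and were not called. The 6 epithelial markers, led by Krt8, summed to 946, 576 and 969 FPKM, 323, 545 and 265 FPKM and 369.6, 423 and 395 FPKM in the same order of groups, and both adapted groups lay below the original/B6129SF1 tumors. Krt8 and Krt18 made up most of this sum. Krt8 was called lower in both (log2 fold change -1.32, adjusted p = 0.0189, and -1.12, adjusted p = 0.0346), and these calls were lost without original/B6129SF1 replicate 1 or 3, and in adapted/C57BL/6 also without any tumor of that group (log2 fold change -1.25 to -1.17, adjusted p 0.067 to 0.0727, and log2 fold change -1.16 to -0.97, adjusted p 0.0898 to 0.113). Both Krt8 calls were also lost without both muscle-rich tumors (log2 fold change -1.14, adjusted p = 0.062, and -1.11, adjusted p = 0.0631). The adapted/B6129SF1 call was lost with the 6 tumors compared fitted alone (adjusted p = 0.0545) and the adapted/C57BL/6 call with no limit on low values (adjusted p = 0.0585). Krt18 was not called (log2 fold change -0.94, adjusted p = 0.116, and -0.93, adjusted p = 0.131). Krt19, Cdh1 and Epcam, the other epithelial markers tested, had log2 fold changes of -0.24, -0.52 and -0.26 in adapted/B6129SF1 and 0.00, 0.36 and 0.01 in adapted/C57BL/6 and were not called.

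Of the 9 macrophage markers, led by C1qa, limma called 0 in either comparison against original/B6129SF1 (3.22% and 3.09% of all genes). They summed to 1331, 1874 and 1779 FPKM in the original/B6129SF1 tumors, 2329, 1926 and 2451 in the adapted/B6129SF1 tumors and 2589, 1136 and 2404 in the adapted/C57BL/6 tumors, so that the adapted/B6129SF1 tumors lay above the original/B6129SF1 tumors. The 6 T cell markers summed to 4.68, 2.93 and 3.92 FPKM, 5.01, 27.3 and 22 FPKM and 26.4, 17.2 and 21.9 FPKM in the same order, and Cd3g, the most abundant, was the 1 called, higher in both adapted groups (log2 fold change 1.5, adjusted p = 0.0393, and 1.95, adjusted p = 0.017). All 6 had log2 fold changes above 0 in both comparisons (median 1.06 and 1.51). Of these, Cd3d, Cd3e, Cd4 and Cd8b1 met the limit on low values through tumors of adapted cells alone, so their values are not independent of it. The Cd3g call in adapted/B6129SF1 was lost without any 1 of the tumors other than adapted/B6129SF1 replicate 1 (log2 fold change 1.16 to 1.54, adjusted p 0.0508 to 0.11), and that in adapted/C57BL/6 without any original/B6129SF1 tumor or adapted/C57BL/6 replicate 1 or 3 (log2 fold change 1.81 to 1.99, adjusted p 0.0522 to 0.0716). Both Cd3g calls were lost without both muscle-rich tumors (log2 fold change 1.37, adjusted p = 0.113, and 1.81, adjusted p = 0.0526). The adapted/B6129SF1 call was lost with no limit on low values (adjusted p = 0.071) and with the 6 tumors compared fitted alone (adjusted p = 0.0878). The 7 endothelial markers, led by Pecam1, ranged from 67.9 to 115 FPKM in sum, with the adapted/C57BL/6 tumors above the original/B6129SF1 tumors, and the 7 cartilage markers, led by Acan, from 0.484 to 6.58, with 0 calls by limma, and 0 of the 9 muscle and 2 thyroid genes tested were called. The part of fibroblasts, epithelial cells, macrophages and T cells in the levels of Mmp2, Mmp13, Adam33 and Adamts2 was not tested.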

How the data were processed

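RNA from 9 whole tumors, 3 per group, was sequenced. Per the labels and the study's methods, the authors checked reads with FastQC, aligned them to mm10 with HISAT2 and made FPKM values with Cuffnorm, which are the deposited values. Their Cuffdiff comparisons were not used. The gene annotation and the Cuffnorm scaling are not given in the sources used here. Each column carried 1 sample's label, and 0 columns were unmapped. The 10263 genes that reached 1 FPKM in 3 or more tumors were compared as log2(FPKM + 1) with limma 3.58.1 in R 4.3.3 (lmFit, eBayes with trend), in a single model of the 3 groups, with Benjamini-Hochberg adjustment. Fold changes are on this scale, which understates changes of low genes. Sums and members outside the fit were compared with exact two-sided permutation tests. The number of tumors and unknown depth limit precision, and p-values measure the spread between tumors labelled as biological replicates. The limma procedure was also run on simulated data with independent normal noise and with changes planted only in the more abundant genes. That run does not cover low genes such as Adam33 or tumors that stand apart, and no conclusion was drawn from it.

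The members and gene lists were chosen with earlier results of these data known. Members were named when called, when among the 10 most abundant, when passing the adjusted p alone, or for their level, and list genes when called or most abundant, with a few others such as Col1a1, Lum, Dcn, Cdh1 and Epcam named after their values were seen. Alternatives were another pseudocount, filter, scaling or threshold, only the groups compared, no trend, a replicate block, and tumors left out. Mouse sequences and coordinates were not used here.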

Additional observations from a re-analysis of the deposited data

How the results depend on the processing

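The count of members called in the adapted/B6129SF1 group against original/B6129SF1, 4 in the reported fit, rose to 7 with a pseudocount of 0.1, where calls among all genes rose from 3.22% to 4.2%. The 3 added, Mmp10, Mmp23 and Mmp25, had met the limit on low values through tumors of original or of adapted cells alone. The count fell to 2 (Adam33 and Adamts2) with a replicate block, with 2.36% of all genes called. It ranged from 1 to 4 with single tumors left out (1.46 to 3.41% of all genes). In the adapted/C57BL/6 group against original/B6129SF1 the count of 3 rose to 5 without a threshold on the fold change (6.75% of all genes) and ranged from 1 to 4 with single tumors left out (1.5 to 3.34% of all genes). Between the adapted groups it was 0 under each alternative. Other alternatives for these counts stayed within 1.5 times the reported count. With FPKM of at least 5 in at least 3 tumors, 26 members could be tested and Adam33 was not among them. For single genes, 702 alternatives of 42 results gave 614 on the same side of the threshold and in the same direction, 78 that lost and 10 that gained a call, and 0 that changed direction. The 42 were members with an unadjusted p under 0.05 by limma, list genes with an adjusted p under 0.05, and Mmp9. Results picked in that way seldom change direction, so the 0 is no measure of stability. Most of the 42 were not called in the reported fit, and staying uncalled counts among the 614. The 78 losses all fell on results that were called. The replicate block gave Mmp2 and Mmp13 in the adapted/B6129SF1 group adjusted p-values of 0.0542 and 0.0591 by limma. In the same group it took the calls of Adamtsl5, Krt8 and Cd3g away (adjusted p = 0.0519, 0.0557 and 0.0832), and in the adapted/C57BL/6 group that of Krt8 (adjusted p = 0.0869). Tumors with the same number came from different mice. The correlations of their deviations from the group means lay between -0.39 and 0.61, with the highest for replicate 2 of the adapted groups. With 3 tumors per group, these values cannot show whether the numbers mark a shared batch. For all lost calls the cause was not tested. The depth of the tumors is unknown, so no limit for members listed at 0 can be given.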
